A study of Mus musculus with 16 samples.

Results

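The genes described here are 8 secreted host-defence genes of mammary epithelium: Ltf, Lcn2, Pigr, Saa1, Saa2, Saa3, Wfdc18 and Lbp. They were chosen by name, and each matched a single gene identifier among the 55487 in the deposited tables. All 8 passed the filter on low counts, which kept 24252 genes. RNA was sequenced from 16 samples of mouse mammary organoids, which are small bodies of many cells cultured from tissue. There were 3 WT samples from normal breast, 4 PIK3CA mutant samples, 4 HER2 mutant samples and 5 samples carrying both mutations, called double mutant below. All mutant samples came from breast tumor. In each comparison with WT, genotype and tissue source therefore cannot be told apart. The study's title names the HER2 mutation as V777L and the PIK3CA mutation as H1047R. All organoids were grown in a medium with epidermal growth factor and medium conditioned by Rspo1 and Noggin. The promoter or recombinase behind each mutation, the strain and the age of the animals were not given in the sources used here.

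Mammary epithelium lines a duct that opens to the outside, and it secretes proteins that hold microbes in check both in milk and in the resting gland. Some of these proteins act by withholding iron, some by binding bacterial lipids, some by inhibiting proteases, and one carries antibodies across the cell. Several belong to the acute-phase response, the set of secreted proteins that rise during inflammation, for which the factors NF-kB, C/EBP and STAT3 are the classical transcriptional routes.

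Promoter sequences of 7 of the 8 genes were found in RefSeq (build GRCm38.p6), and Lbp had no entry in that table. The 250 bases before each RefSeq start were searched on both strands for a C/EBP motif (TTGCNNAA). It was present in 5 of the 7, namely Ltf, Lcn2, Saa1, Saa2 and Saa3. For Lcn2 this window (chr2:32387740-32387989) lies inside the gene span given below, which comes from another annotation and reaches further upstream. The same motif was present in 9.56% of 32851 RefSeq promoters of the same length. The NF-kB consensus and the STAT motif (TTCNNNGAA) had no match in the 7 windows, against 7.25% and 7.02% of all promoters, and TATAAA was present in Wfdc18 alone, against 12.4%. A match describes letters in the window and is not a binding site that was measured. The stretches printed here are those of the serum amyloid A genes, because Saa1 and Saa2 are near-identical copies, and of Ltf, because its level varied most between samples. Each stretch is 200 bases long, from 250 to 51 bases before the start, 5′ to 3′ on the gene's strand, with the C/EBP match in capitals.
Saa1 (chr7:46743031-46743230, minus strand): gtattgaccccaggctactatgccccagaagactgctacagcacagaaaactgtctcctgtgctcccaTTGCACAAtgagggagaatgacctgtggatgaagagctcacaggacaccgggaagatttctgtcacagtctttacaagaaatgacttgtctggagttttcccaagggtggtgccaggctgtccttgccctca
Saa2 (chr7:46751583-46751782, plus strand): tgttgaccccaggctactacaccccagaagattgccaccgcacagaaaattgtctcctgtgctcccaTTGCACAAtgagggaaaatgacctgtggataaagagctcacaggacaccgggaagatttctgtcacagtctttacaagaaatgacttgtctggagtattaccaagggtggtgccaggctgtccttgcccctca
Saa3 (chr7:46715727-46715926, minus strand): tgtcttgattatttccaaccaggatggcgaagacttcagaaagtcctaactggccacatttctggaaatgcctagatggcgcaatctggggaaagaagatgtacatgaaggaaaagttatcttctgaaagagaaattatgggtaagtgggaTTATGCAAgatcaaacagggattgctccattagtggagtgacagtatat
Ltf (chr9:111019042-111019241, plus strand): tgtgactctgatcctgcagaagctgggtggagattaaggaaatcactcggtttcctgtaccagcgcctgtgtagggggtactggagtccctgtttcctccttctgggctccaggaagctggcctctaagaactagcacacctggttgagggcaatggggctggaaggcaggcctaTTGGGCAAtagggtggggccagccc

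Over the full 250 bases, the Saa1 and Saa2 promoters aligned at 249 positions, of which 238 were identical (95.6%). Saa1 and Saa3 aligned at 205 positions with 75.1% identity. The match began 182 bases before the start in Saa1 and 183 in Saa2, with the same 8 letters, TTGCACAA, in both genes. It began 99 bases before the start in Saa3 (TTATGCAA, the motif on the other strand) and 75 in Ltf (TTGGGCAA, also on the other strand).

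Total counts ranged from 45545182 to 64168308 per sample, so that 3 counts, taken as the detection floor, corresponded to 0.0477 to 0.0668 CPM, the counts scaled to a common library size. TMM factors were applied to all levels. The epithelial gene Epcam averaged 493 to 640 CPM over the 4 genotypes, so epithelial RNA was present in all of them. Markers of macrophages and other myeloid cells were high in WT, where the 8 markers summed to 512 to 3080 CPM, and low in the mutants, at 14.2 to 36.8 CPM in PIK3CA mutants, 9.07 to 188 in HER2 mutants and 12.6 to 67.6 in double mutants. Against WT, 8 of 8 passed the test as lower in PIK3CA mutants, 6 of 8 in HER2 mutants and 8 of 8 in double mutants. The 6 fibroblast markers summed to 325 to 1900 CPM in WT, 65.1 to 471 in PIK3CA mutants, 34 to 624 in HER2 mutants and 26.2 to 58 in double mutants, so that only double mutants lay wholly below WT. The 7 milk secretion markers summed to 3290 to 5540 CPM in WT, 8720 to 14600 in PIK3CA mutants, 6240 to 51900 in HER2 mutants and 7120 to 22800 in double mutants. Csn3 alone made up most of this sum in WT, PIK3CA and double mutants, with means of 4180, 11000 and 13100 CPM. Against WT, 0 of the 7 passed in PIK3CA mutants, 6 in HER2 mutants and 3 in double mutants, all as higher. Lalba averaged 87.5 CPM in WT and 9.4 in PIK3CA mutants. The 8 neutrophil markers summed to 20.9 CPM at most, and Ly6g had no count in any WT sample. In bulk RNA, fewer cells of a type and less RNA per cell cannot be told apart.

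**Figure D1:**
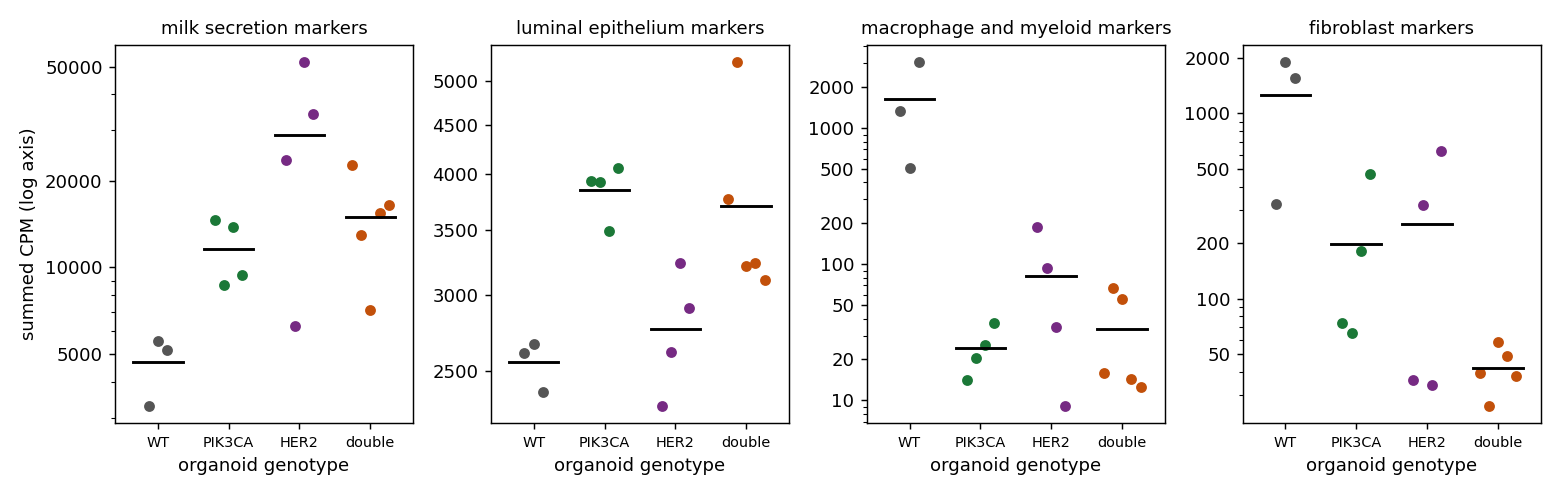
Summed CPM (log axis) of 4 lists of cell type markers in each of the 16 organoid samples, in replicate order within each genotype, with a bar at the mean. Macrophage and myeloid markers lay between 512 and 3080 CPM in WT and at 188 CPM or less in the mutants, and milk secretion markers reached 51900 CPM in HER2 mutant replicate 3.

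Of the 8 genes, 3 passed the test against WT in PIK3CA mutants (Wfdc18 and Lbp higher, Saa3 lower), where 4.52% of all tested genes passed, 1.49% as higher and 3.03% as lower. In HER2 mutants 4 passed, all higher (Ltf, Lcn2, Wfdc18 and Lbp), against 10.4% of all genes, 4.75% as higher and 5.63% as lower. In double mutants 3 passed, all higher (Ltf, Wfdc18 and Lbp), against 11.8% of all genes, 5.03% as higher and 6.72% as lower. The test was edgeR's quasi-likelihood test in a single fit of the 16 samples, with Benjamini-Hochberg adjustment over all tested genes and a threshold of 0.05. The 3 comparisons share the WT samples. The median log2 fold change of the 8 genes was 1.00 in PIK3CA mutants, 1.52 in HER2 mutants and 1.09 in double mutants, and that of all tested genes was -0.03, 0.03 and 0.01. Samples of the 2 groups did not overlap for 6 of the 8 genes in PIK3CA mutants, 4 in HER2 mutants and 5 in double mutants. Over all tested genes, 29.5%, 22.2% and 23% did not overlap.

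**Figure D2:**
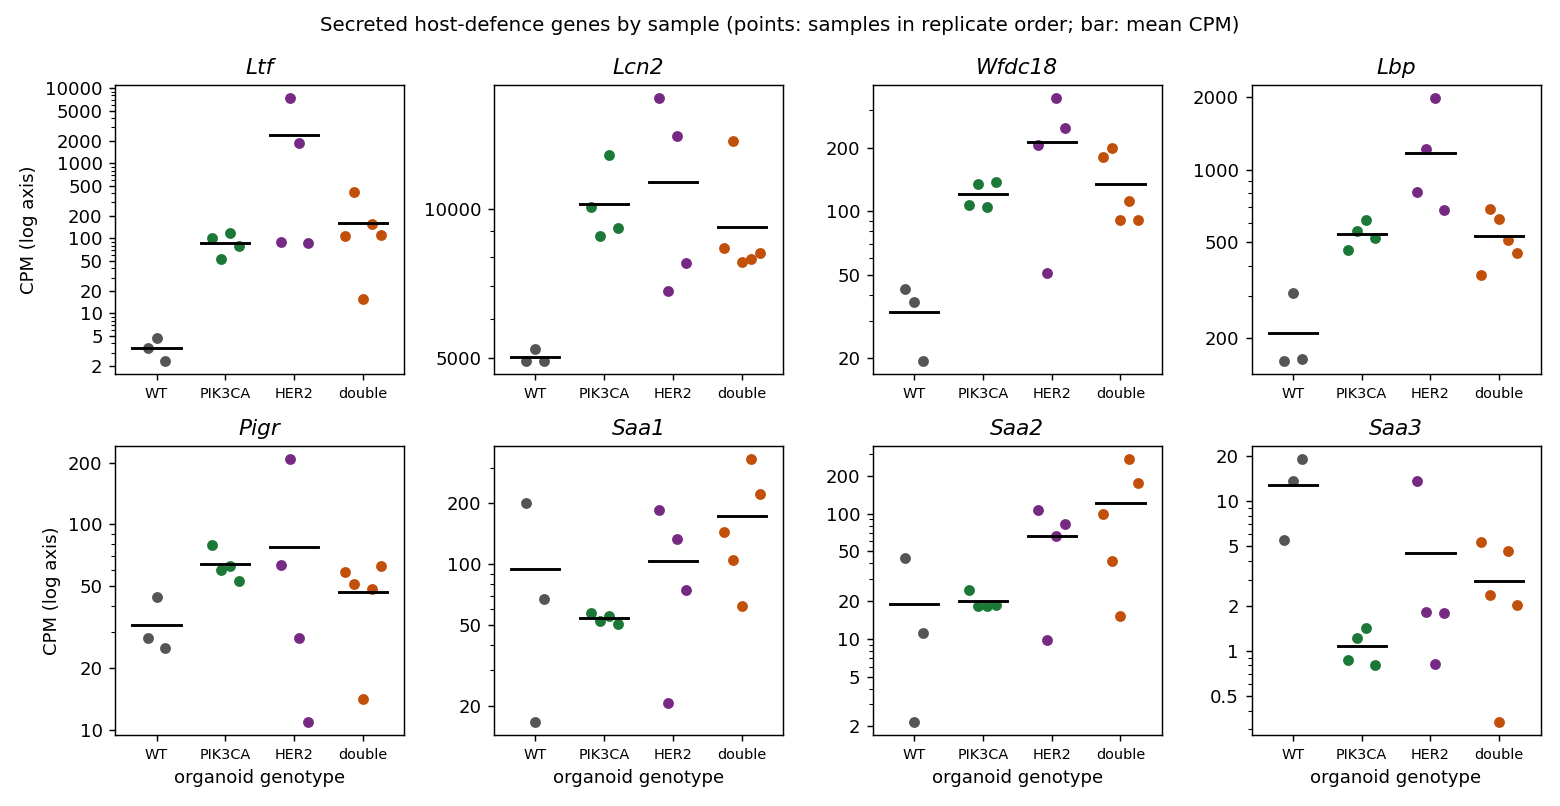
CPM (log axis) of the 8 genes in each organoid sample, in replicate order within each genotype, with a bar at the mean. Every mutant sample lay above every WT sample for Ltf, Lcn2, Wfdc18 and Lbp, while the Saa1, Saa2 and Pigr levels of HER2 and double mutants overlapped with WT.

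Ltf encodes lactoferrin, an iron-binding protein of milk and of neutrophil granules that deprives bacteria of iron. The gene (ENSMUSG00000032496, chr9:111019271-111042767, plus strand, GRCm38) was at 3.44, 4.64 and 2.3 CPM in WT. It was at 101, 52.2, 116 and 78.7 CPM in PIK3CA mutants, 89.1, 7380, 1870 and 86 in HER2 mutants, and 106, 414, 15.6, 157 and 111 in double mutants. All 13 mutant samples lay above all WT samples. HER2 mutant replicates 2 and 3 stood far above the other 11 mutant samples, and replicates 1 and 4 lay within the PIK3CA mutant range. In HER2 mutant replicate 2 the gene took 383042 counts, 0.799% of the library. Ltf rose in HER2 mutants by a log2 fold change of 9.41 (edgeR adjusted p = 0.00386, SE 1.72). It also rose in double mutants, by 5.54 (edgeR adjusted p = 0.0202, SE 1.44). In PIK3CA mutants the log2 difference of 4.65 (SE 1.39) did not pass (edgeR adjusted p = 0.0726). The PIK3CA mutant and WT samples did not overlap, as for 29.5% of all tested genes.

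The HER2 value for Ltf was 7.63 without HER2 mutant replicate 2 (edgeR adjusted p = 0.00368), and it passed in 7 of 7 fits that left out a replicate. It missed the threshold in a fit of the HER2 and WT samples alone (edgeR adjusted p = 0.0579). The call in double mutants was lost when any 1 of the 3 WT replicates was left out, and the value was 4.81 without double mutant replicate 2. HER2 mutant replicate 2 had the lowest summed milk marker level of its group, 6240 CPM against 23600 to 51900 CPM in the others. HER2 mutant replicate 3, next highest in Ltf at 1870 CPM, had the highest milk sum, 51900 CPM. The part of cell makeup in the Ltf levels was not tested. Neutrophils are another source of lactoferrin. The 8 neutrophil markers summed to 1.77 CPM in HER2 mutant replicate 2, the lowest of its group (4.07 to 10.7 CPM in the others), and to 4.56 to 20.9 CPM in WT. S100a8 made up most of these sums, with up to 1090 counts in a sample. S100a9, Cxcr2 and Csf3r reached 109, 51 and 93 counts, and Ly6g and Mpo 2 and 9.

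Lcn2 encodes lipocalin 2, which binds the iron-carrying siderophores of bacteria. The gene (ENSMUSG00000026822, chr2:32384633-32388252, minus strand) had the highest mean level of the 8 per kilobase of exon in every genotype. It was at 4930, 5230 and 4940 CPM in WT, 10100, 8810, 12800 and 9140 in PIK3CA mutants, 16700, 6820, 14000 and 7760 in HER2 mutants, and 8350, 13700, 7820, 7920 and 8150 in double mutants. The WT samples lay within a narrow band below every mutant sample. Lcn2 rose in HER2 mutants, by a log2 fold change of 1.17 (edgeR adjusted p = 0.0262, SE 0.308). The differences in PIK3CA mutants, 1.02 (edgeR adjusted p = 0.0746, SE 0.307), and in double mutants, 0.87 (edgeR adjusted p = 0.0689, SE 0.295), did not pass. The call in HER2 mutants was lost without any 1 of the 3 WT replicates or without HER2 mutant replicate 1 or 3, and in a fit of HER2 and WT samples alone (edgeR adjusted p = 0.129). Both other differences passed with DESeq2, with adjusted p = 0.0156 in PIK3CA mutants and 0.0223 in double mutants.

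Wfdc18 encodes a small secreted protein of the whey acidic protein family, whose members include inhibitors of extracellular proteases. The gene (ENSMUSG00000000983, chr11:83709015-83711348, plus strand) was at 42.9, 37.2 and 19.4 CPM in WT. It was at 107, 135, 104 and 137 CPM in PIK3CA mutants, 206, 51.1, 343 and 247 in HER2 mutants, and 180, 200, 91.1, 111 and 91.1 in double mutants. All mutant samples lay above all WT samples, and HER2 mutant replicate 2, the sample highest in Ltf, was the lowest mutant sample for Wfdc18. Wfdc18 rose by a log2 fold change of 1.87 in PIK3CA mutants (edgeR adjusted p = 0.0374, SE 0.484). The rise was 2.68 in HER2 mutants (edgeR adjusted p = 0.00451, SE 0.503) and 2.02 in double mutants (edgeR adjusted p = 0.0115, SE 0.476). The PIK3CA call was lost in each of the 7 fits that left out a replicate, the HER2 call in the fit of HER2 and WT samples alone (edgeR adjusted p = 0.0656), and the double mutant call without WT replicate 3. In HER2 mutants replicates 3, 4 and 1, high in Wfdc18, had the highest summed milk markers, at 51900, 34100 and 23600 CPM. The other genotypes did not share this order. PIK3CA mutant replicates 4 and 2, highest in Wfdc18, had the lowest milk sums of their group, 9390 and 8720 CPM. WT replicate 1, highest in Wfdc18 among WT, had the lowest milk sum there, 3290 CPM. In WT and PIK3CA mutants the milk sum was mostly Csn3. The part of milk-secreting cells in these levels was not tested.

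Lbp encodes lipopolysaccharide-binding protein, an acute-phase protein that passes bacterial lipopolysaccharide to CD14 and on to the TLR4 receptor. The gene (ENSMUSG00000016024, chr2:158306493-158332852, plus strand) was at 161, 309 and 164 CPM in WT. It was at 463, 560, 619 and 519 CPM in PIK3CA mutants, 810, 1220, 1980 and 681 in HER2 mutants, and 365, 689, 628, 510 and 453 in double mutants. All mutant samples lay above all WT samples, and every HER2 mutant sample lay above every PIK3CA mutant sample. Lbp rose by a log2 fold change of 1.35 in PIK3CA mutants (edgeR adjusted p = 0.0328, SE 0.343). The rise was 2.47 in HER2 mutants (edgeR adjusted p = 0.00108, SE 0.36) and 1.32 in double mutants (edgeR adjusted p = 0.0169, SE 0.333). The HER2 call held in 7 of 7 fits that left out a replicate. The PIK3CA call was lost in each such fit but the one without WT replicate 2, and the double mutant call without WT replicate 1 or 3 and without double mutant replicates 2 and 3 together (edgeR adjusted p = 0.0795).

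Pigr encodes the polymeric immunoglobulin receptor, which carries dimeric IgA across the epithelium and is cut to form secretory component. The gene (ENSMUSG00000026417, chr1:130826684-130852249, plus strand) was at 28.1, 44.5 and 25.1 CPM in WT, 79.2, 60.2, 62.9 and 53.2 in PIK3CA mutants, 63.7, 208, 27.9 and 10.9 in HER2 mutants, and 58.7, 51.5, 14.2, 48.4 and 62.7 in double mutants. PIK3CA mutants lay above WT without overlap, HER2 mutants ran from below WT to the highest level of all, and 4 of the 5 double mutants lay above WT. No difference from WT passed the test. The log2 difference was 0.97 in PIK3CA mutants (edgeR adjusted p = 0.534, SE 0.693), 1.26 in HER2 mutants (edgeR adjusted p = 0.276, SE 0.7) and 0.53 in double mutants (edgeR adjusted p = 0.651, SE 0.658). HER2 mutant replicate 2, highest in Ltf, was also highest in Pigr, and the HER2 difference was 0.07 without it. The PIK3CA difference passed in a fit of the PIK3CA and WT samples alone (edgeR adjusted p = 0.016).

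Saa1 and Saa2 encode serum amyloid A proteins, which rise steeply in the acute phase and bind lipoproteins, and they lie head to head on chromosome 7 (ENSMUSG00000074115, chr7:46740497-46742980, minus strand, and ENSMUSG00000057465, chr7:46751790-46754313, plus strand). Saa1 was at 202, 16.6 and 67.4 CPM in WT, 57.8, 52.5, 55.6 and 50.8 in PIK3CA mutants, 185, 20.7, 134 and 74.5 in HER2 mutants, and 144, 105, 62.2, 331 and 223 in double mutants. Saa2 was at 44.1, 2.16 and 11.2 CPM in WT, 24.4, 18.4, 18.2 and 18.8 in PIK3CA mutants, 106, 9.87, 66.5 and 83.2 in HER2 mutants, and 100, 41.7, 15.3, 272 and 174 in double mutants. WT samples spread widely for both genes, PIK3CA mutants were close together inside the WT range, and the highest samples were double mutant replicates 4 and 5. No difference from WT passed for either gene. For Saa1 the log2 difference was -0.81 (SE 0.708) in PIK3CA mutants, 0.12 (SE 0.714) in HER2 mutants and 0.86 (SE 0.703) in double mutants, with edgeR adjusted p = 0.627, 0.939 and 0.471. For Saa2 it was 0.06 (SE 0.905), 1.79 (SE 0.954) and 2.65 (SE 0.972), with edgeR adjusted p = 0.985, 0.253 and 0.0898.

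The Saa2 difference in double mutants was 4.17 without WT replicate 1 (edgeR adjusted p = 0.0428), the WT sample highest in both genes, and it passed with DESeq2 (adjusted p = 0.0274) and without double mutant replicates 2 and 3 (3.25, edgeR adjusted p = 0.0396). Of all 50-base words in Saa1 transcripts 31.5% also occur in other genes, mainly Saa2, and 30% of those of Saa2 occur in Saa1. How reads that match both genes were assigned was not given in the sources used here, so the split between these genes is uncertain.

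The share of Saa1 in the summed counts of the pair was looked at after the levels had been seen, and no test was run on it. It was 82.1% to 88.5% in the 3 WT samples, 70.3% to 75.4% in the 4 PIK3CA mutants, 47.2% to 67.7% in the 4 HER2 mutants and 54.9% to 80.2% in the 5 double mutants. WT lay above all mutant samples, while the 3 mutants were not all separate from each other. Between genotypes the summed level did not follow the same order. WT ran from 18.8 to 246 CPM and PIK3CA mutants from 69.6 to 82.3 CPM. Within WT the share was lower where the sum was higher, at 88.5%, 85.7% and 82.1% for 18.8, 78.6 and 246 CPM. Double mutants had the same inverse order, from 80.2% at 77.5 CPM to 54.9% at 603 CPM. PIK3CA and HER2 mutants did not keep this order throughout. In HER2 mutant replicate 4 Saa2 had more counts than Saa1, 4066 against 3641.

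**Figure D3:**
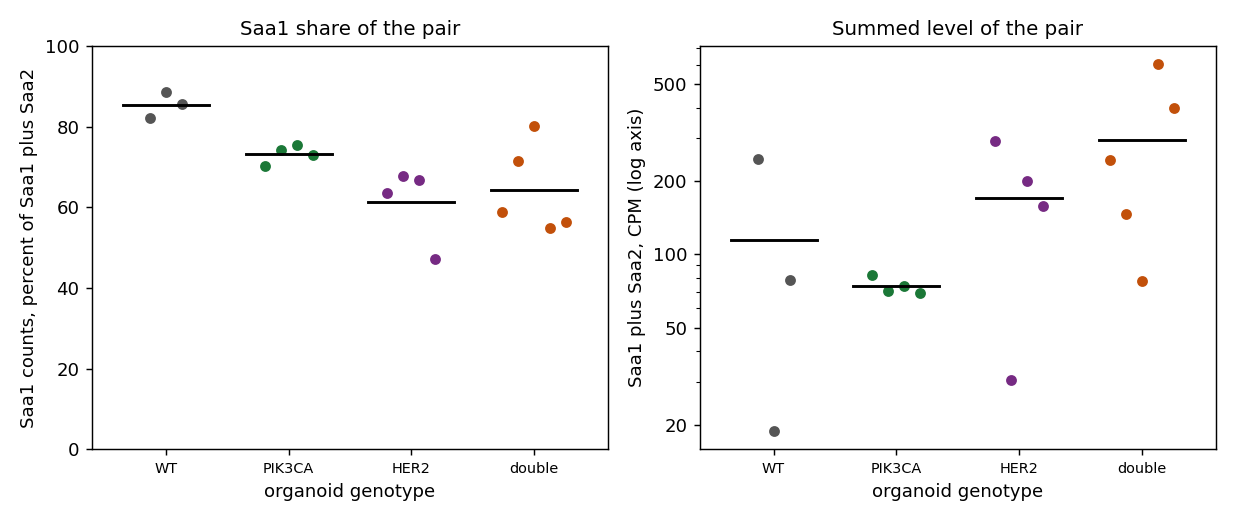
Left, Saa1 counts as a percent of Saa1 plus Saa2 counts in each organoid sample, and right, the summed CPM of the pair (log axis), with bars at the mean. The share lay between 82.1% and 88.5% in WT and between 47.2% and 80.2% in the 3 mutants, while the summed levels overlapped.

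Saa3 encodes a serum amyloid A made outside the liver, among others by macrophages and by mammary epithelium. The gene (ENSMUSG00000040026, chr7:46711998-46715700, minus strand) was at 5.47, 13.7 and 19.1 CPM in WT. It was at 0.875, 1.22, 1.42 and 0.804 CPM in PIK3CA mutants, 13.6, 1.81, 0.823 and 1.78 in HER2 mutants, and 5.32, 2.37, 0.334, 4.62 and 2.02 in double mutants. All PIK3CA and double mutant samples lay below all WT samples, and HER2 mutant replicate 1 alone among the mutants lay inside the WT range. Saa3 fell by 3.57 on the log2 scale in PIK3CA mutants (edgeR adjusted p = 0.0313, SE 0.896). The log2 difference was -1.5 in HER2 mutants (edgeR adjusted p = 0.276, SE 0.839) and -2.12 in double mutants (edgeR adjusted p = 0.0956, SE 0.792), neither past the threshold.

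The Saa3 call in PIK3CA mutants was lost in each fit that left out a replicate except the one without WT replicate 1, and with the replicate number as a block (edgeR adjusted p = 0.0602). Without HER2 mutant replicate 1 the HER2 difference was -3.11 (edgeR adjusted p = 0.0153). The macrophage and myeloid markers were lower in the mutants as well, as given above. HER2 mutant replicate 1, the mutant sample highest in Saa3, also had the highest summed myeloid level among the mutants, 188 CPM. Within WT the orders differed, since Saa3 was lowest in replicate 1 and the myeloid sum in replicate 2. They differed within double mutants too. Replicates 1 and 4, the double mutants highest in Saa3, had myeloid sums of 16 and 14.3 CPM. Replicate 3, the lowest in Saa3, had 56 CPM. In double mutants Cd68 made up most of the myeloid sums, at 10.7 to 65.4 CPM, while Lyz2 reached 0.337 CPM at most. Their order there is therefore largely that of 1 gene. The part of myeloid cells in the Saa3 levels was not tested.

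**Figure D4:**
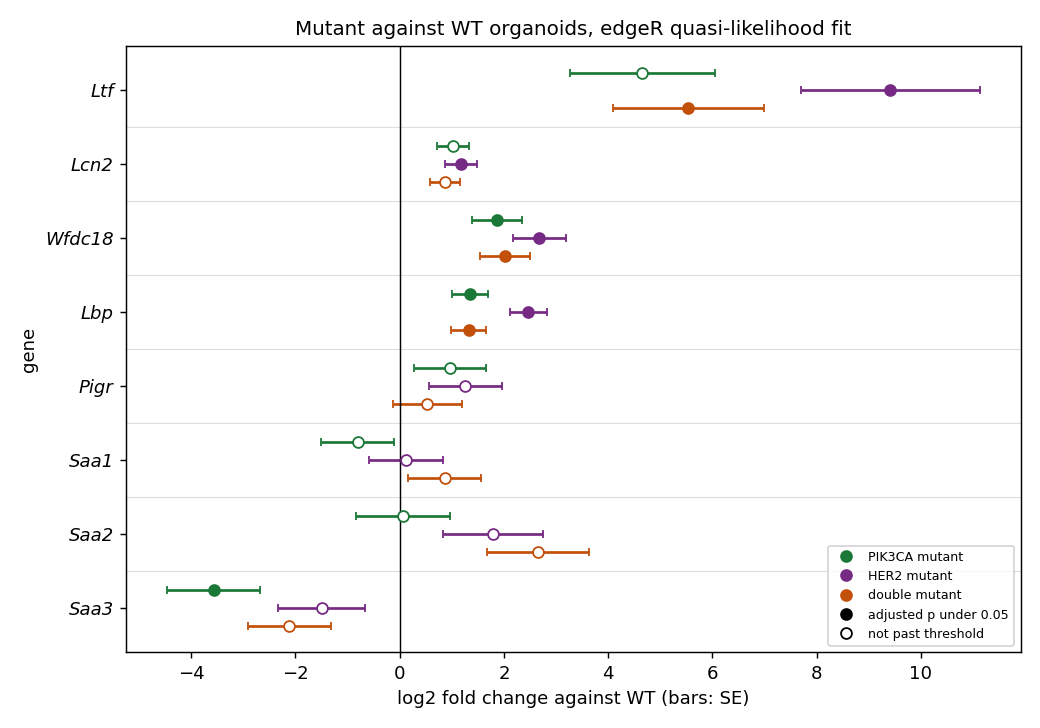
Log2 fold change against WT of the 8 genes in PIK3CA, HER2 and double mutant organoids from edgeR's quasi-likelihood fit, with SE bars and filled points where the adjusted p was under 0.05. Ltf, Lcn2, Wfdc18 and Lbp lay above 0 in all 3 mutants and Saa3 below 0 in all 3, and the filled points number 3, 4 and 3 of 8.

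Between the mutants, few of the 8 genes passed. Lbp was lower in double mutants than in HER2 mutants, by 1.15 on the log2 scale (edgeR adjusted p = 0.0489, SE 0.289), the only 1 of the 8 that passed there, where 2.5% of all genes did. Samples of these 2 groups overlapped for all 8 genes, while 4.59% of all genes had no overlap. Ltf differed by -3.87 (SE 1.07) without passing (edgeR adjusted p = 0.063). This Ltf difference was -2.09 without HER2 mutant replicate 2 (edgeR adjusted p = 0.252), and it passed without HER2 mutant replicate 1 or 4 and with DESeq2 (adjusted p = 0.00553). The Lbp call was lost without HER2 mutant replicate 2 or 3, or without double mutant replicate 1, 3, 4 or 5, and in a fit of the 2 groups alone (edgeR adjusted p = 0.186).

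HER2 mutants exceeded PIK3CA mutants in Ltf, by a log2 fold change of 4.76 (edgeR adjusted p = 0.0391, SE 1.22), 1 of the 8 genes, where 4.41% of all genes passed. Lbp, at 1.12 (SE 0.309), missed the threshold (edgeR adjusted p = 0.0514). It was the 1 gene of the 8 whose samples did not overlap, which is no more than the 12.5% of all genes without overlap. The Ltf difference was 2.97 without HER2 mutant replicate 2 (edgeR adjusted p = 0.1), and the call was also lost without any 1 of the 4 PIK3CA mutant replicates. It was 2.77 with limma on the deposited normalized values (adjusted p = 0.213). Double mutants against PIK3CA mutants gave 0 of 8 genes past the threshold with edgeR and 0 with DESeq2 and limma, where edgeR called 0.672% of all genes. The largest differences were in Saa2, 2.6 higher in double mutants (edgeR adjusted p = 0.212, SE 0.862), and Saa1, 1.68 higher (edgeR adjusted p = 0.3, SE 0.655). Neither passed, and the 2 genes share sequence. Saa1 was the 1 gene of the 8 without overlap here, a share near the 7.92% of all genes. Its lowest double mutant sample was at 62.2 CPM and its highest PIK3CA mutant at 57.8.

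The interaction asks whether the double mutant change equals the summed single-mutant changes on the log2 scale, and a value below 0 is a double mutant change smaller than that sum. All 3 mutants came from tumor and only WT from normal breast, so a shift that tumor source gives to all 3 enters the interaction with the opposite sign. For genes that were higher in all 3 mutants, a negative interaction and such a shift cannot be told apart. It passed for 2 of the 8 genes, against 1.06% of all tested genes. Ltf had an interaction of -8.53 (edgeR adjusted p = 0.0352, SE 1.8) and Lbp of -2.5 (edgeR adjusted p = 0.0158, SE 0.45). In Ltf the single-mutant changes of 4.65 and 9.41 stood against 5.54 in double mutants, and in Lbp changes of 1.35 and 2.47 against 1.32. Wfdc18 (-2.52, edgeR adjusted p = 0.0676, SE 0.622) and Lcn2 (-1.32, edgeR adjusted p = 0.136, SE 0.401) had the same sign and did not pass. Lbp passed in 14 of 16 fits that left out a replicate, the exceptions being WT replicates 1 and 3. Ltf passed in 6 of 16, and it was lost without any 1 WT or PIK3CA mutant replicate or without double mutant replicate 1, 4 or 5. The Ltf value was -6.74 without HER2 mutant replicate 2 and -9.25 without double mutant replicate 2, and it did not pass with the replicate number as a block (adjusted p = 0.102) or with limma (adjusted p = 0.0514). Wfdc18 passed without HER2 mutant replicate 2 (-2.85, edgeR adjusted p = 0.00622), and Saa3 had an interaction of 4.56 without HER2 mutant replicate 1 (edgeR adjusted p = 0.028).

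Per kilobase of exon, a scale on which genes can be set side by side, Lcn2 led in every genotype, at 1919 CPM per kilobase in WT and 3503 to 4316 in the mutants. In WT the order below it was Lbp (43.7), Saa1 (38.5), Wfdc18 (27.2), Pigr (8.09), Saa2 (7.61), Saa3 (4.9) and Ltf (1). Lbp, Saa1 and Wfdc18 overlapped in their WT samples, and so did Pigr, Saa2 and Saa3. In HER2 mutants Ltf stood next below Lcn2 at a mean of 683 CPM per kilobase, with samples from 24.9 to 2139, followed by Lbp (243), Wfdc18 (174), Saa1 (41.8), Saa2 (26.4), Pigr (19.3) and Saa3 (1.73). The Ltf samples overlapped those of Lbp (141 to 410), and without HER2 mutant replicate 2 the mean of Ltf was 198, below Lbp (239) and Wfdc18 (217). In PIK3CA mutants Lbp (112) and Wfdc18 (99) followed Lcn2 with overlapping samples, and Saa3 was last at 0.414. In double mutants Wfdc18 and Lbp were both at 110, Saa1 was at 69.8, Saa2 at 47.9 and Ltf at 46.6, with overlapping samples, and Saa3 was last at 1.13.

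The genes closest to each of the 8 were sought by the root mean square difference in log2 CPM over the 16 samples, after centring each gene on its mean, among 11745 genes. Lcn2 was closest to Col4a5 (0.254) and Lbp to Tgm2 (0.368), against SDs of their own of 0.53 and 0.92. Wfdc18 was closest to Pcdh18 (0.478), Pigr to Acot11 (0.59), Saa1 to Cmpk2 (0.716) and Saa3 to Slc38a3 (0.883). Saa2 was closest to Saa1 (0.821), with which it shares sequence. Ltf, with an SD of 3.05, was closest to the mucin gene Muc4 at 1.58. As a share of each gene's own SD these distances do not set Ltf apart from the others. The 16 samples share their genotype groups, and the measure carries no test.

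Other host-defence genes, from 4 lists drawn up for the same pathway, moved in both directions. Of 20 other secreted antimicrobial genes 17 were tested, and 3 rose and 2 fell in PIK3CA mutants, 4 rose and 4 fell in HER2 mutants, and 2 rose and 2 fell in double mutants. Over all tested genes 4.52%, 10.4% and 11.8% passed in these comparisons, and the shares of the lists here and next are to be read against that, as they rest on few genes and no test of a list was run. Lpo, the lactoperoxidase of milk, was at 1 to 7 counts per sample in WT (mean 0.0864 CPM) and averaged 1.37 CPM in PIK3CA mutants, 5.68 in HER2 mutants and 5.7 in double mutants. Pglyrp1, a protein that binds bacterial peptidoglycan, rose by log2 fold changes of 3.53, 5.38 and 4.03 (edgeR adjusted p = 0.00504, 0.000678 and 0.00111), with an interaction of -4.88 (edgeR adjusted p = 0.0113). It too was higher in all 3 tumor-derived groups, so this value and tissue source cannot be told apart. The Pglyrp1 interaction missed the threshold without WT replicate 3 (edgeR adjusted p = 0.0583) and with the replicate number as a block (edgeR adjusted p = 0.0603). Xdh, the xanthine oxidoreductase of milk fat globules, had an interaction of -1.99 (edgeR adjusted p = 0.0071, SE 0.288). Lyz1, a lysozyme gene, averaged 21.8 CPM in WT, 0.714 in HER2 mutants and at most 4 counts per sample in PIK3CA mutants. In double mutants Lyz1 had at most 1 count per sample. Chil1, a chitinase-like protein, averaged 11000 CPM in WT and 13900 in PIK3CA mutants and was lower in HER2 than in PIK3CA mutants, by 1.67 on the log2 scale (edgeR adjusted p = 0.0059, SE 0.291).

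Of 20 other acute-phase and complement genes 16 were tested, and 1 rose in PIK3CA mutants, 2 rose and 2 fell in HER2 mutants, and 1 rose and 1 fell in double mutants, so that in double mutants 2 of 16 passed against 11.8% of all genes, a share near the background. C3, the central complement component, rose in PIK3CA mutants (1.11, edgeR adjusted p = 0.0428, SE 0.296) and was lower in double mutants than in PIK3CA mutants (-1.23, edgeR adjusted p = 0.0406, SE 0.252). Hp, which encodes haptoglobin, fell by 2.23 in HER2 mutants and by 2.39 in double mutants (edgeR adjusted p = 0.0394 and 0.0176), from 2210 CPM in WT. It averaged 471 and 421 CPM in these groups and 467 CPM in PIK3CA mutants, where the difference from WT did not pass. Cp, the ferroxidase ceruloplasmin, rose by 1.48 in HER2 mutants (edgeR adjusted p = 0.0236, SE 0.382). The calls of C3, of Hp in HER2 mutants and of Cp were each lost in 4 or more fits that left out a replicate, and that of Hp in double mutants was lost without WT replicate 1.

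Of 23 inflammatory regulators 22 were tested, and 3 rose and 2 fell in PIK3CA mutants, 2 rose and 4 fell in HER2 mutants, and 4 rose and 5 fell in double mutants. Tnfaip3, an NF-kB target that restrains NF-kB signalling, rose by 1.48, 1.3 and 1.76 in the 3 mutants (edgeR adjusted p = 0.00345, 0.00645 and 0.000536) and passed in each fit that left out a replicate. Il17ra, a receptor subunit for the cytokine IL-17, fell by 1.1, 0.68 and 1.18 (edgeR adjusted p = 0.00178, 0.0229 and 0.000403). Of the 12 receptors and partners of the 8 proteins, 10 were tested, and 1 fell in PIK3CA mutants, 1 rose and 2 fell in HER2 mutants, and 2 rose and 3 fell in double mutants. Tlr2 and Tlr4, receptors for bacterial lipids, fell by 2.6 and 1.22 in HER2 mutants (edgeR adjusted p = 0.00271 and 0.0285). Lbp rose in all 3 mutants. Tlr2 averaged 33.4 CPM in WT, 12.3 in PIK3CA mutants, 5.49 in HER2 mutants and 11.9 in double mutants. Tlr4 averaged 52.2, 36, 22.4 and 26.9 CPM in the same order. Cd14, the partner of Lbp, averaged 540 CPM in WT, 650 in PIK3CA mutants, 278 in HER2 mutants and 328 in double mutants. It was lower in HER2 than in PIK3CA mutants by 1.22 (edgeR adjusted p = 0.0253, SE 0.286). The Tlr4 call was lost without HER2 mutant replicate 1 or 2 or WT replicate 1 or 3, and the Cd14 call without PIK3CA mutant replicate 1, 2 or 3. Myeloid cells also express Cd14, Tlr2, Tlr4 and Lyz1, and their marker levels, given above, were lower in the mutants; the part of those cells in these values was not tested.

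**Figure D5:**
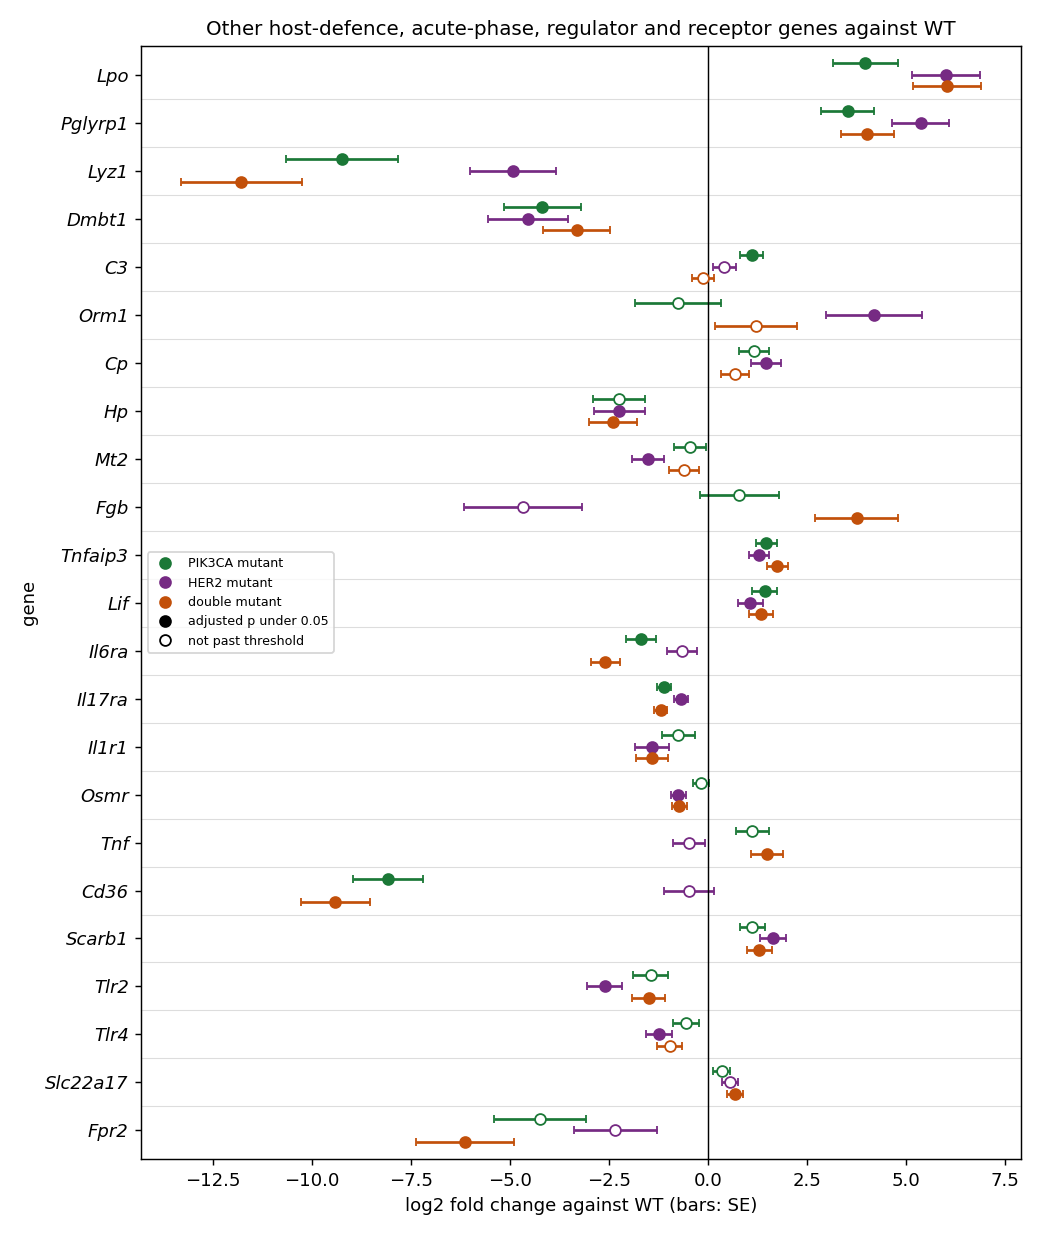
Log2 fold change against WT (SE bars) of the host-defence, acute-phase, regulator and receptor genes that met the naming rule, in PIK3CA, HER2 and double mutant organoids, with filled points where the edgeR adjusted p was under 0.05. Lpo, Pglyrp1 and Tnfaip3 lay above 0 with filled points in all 3 mutants, and Lyz1, Dmbt1 and Il17ra below 0 with filled points in all 3. Genes at a few counts in a group, such as Lyz1 and Fgb, have fitted changes that depend on the prior count.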

How the data were processed

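RNA was sequenced from 16 organoid samples. The submitters' processing notes name bcl2fastq 2.20, STAR 2.0.4b, Subread featureCounts 1.4.5, DESeq2 1.33.5 and the build mm10, without their settings. The deposited files are raw read counts for each Ensembl gene, and a second table of the same genes in normalized units, here treated as signal. A check showed that each deposited normalized signal value was the count divided by a DESeq2 median-of-ratios size factor (largest relative difference 5.49e-10). The tables held 55774 entries, and 287 exact repeats of an identifier were dropped. Strand and the handling of reads that match several genes were not given in the sources used here. In GENCODE M21 (GRCm38) none of the 8 genes overlapped another gene.

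Groups came from the genotype in the labels. The labels name no batch. Nothing states that the samples of a genotype came from separate animals or cultures, so p-values measure only the spread between these samples, which may be technical.

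Tests used edgeR 4.0.16 in R 4.3.3: filterByExpr, TMM factors, estimateDisp, and the two-sided quasi-likelihood test in a single fit with genotype as the only factor. Adjusted p-values are Benjamini-Hochberg over the 24252 tested genes within a comparison. The SE of a log2 fold change was taken from the size of the change and the F statistic of its test (change over the root of F). The scripts were tested on simulated data in which 200 genes were changed in PIK3CA mutants by 2 on the log2 scale. Of these, 198 were tested and 116 were recovered, with 2 false calls, so changes of this size can be missed. Alternatives were other scalings, no filter, a replicate block, a fit of only the groups compared, DESeq2 1.42.0, limma 3.58.1 on log2(normalized value + 1), and leaving out each replicate. Leaving out double mutant replicates 2 and 3 together was chosen after seeing the data. CPM per kilobase used the union of GENCODE exons.

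The 8 genes, the lists and the markers were chosen with earlier results of these data known. Named from each list were the 2 genes called with the largest rise and the 2 with the largest fall in each comparison, and as nearest genes the 2 closest. Not all of these are printed.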

Additional observations from a re-analysis of the deposited data

Results flagged for a closer look

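Of the 24 gene and genotype groups of 4 or 5 samples that were checked for a sample far from the others, 3 had one, and chance alone flags about 1 group in 20. In double mutants, Lcn2 in replicate 2 stood above the others at 13.74 on the log2 CPM scale (13700 CPM, the others between 7820 and 8350). The same replicate had the highest summed luminal marker level of any sample, 5230 CPM against 3110 to 3770 in the other double mutants. HER2 mutant replicate 1, highest of all samples in Lcn2 at 16700 CPM, had the lowest luminal sum, 2300 CPM. PIK3CA mutant replicate 3 had the highest Lcn2 level and the lowest luminal sum of its group, 12800 and 3490 CPM. In WT, replicate 2 was highest in both. Pigr in double mutant replicate 3 stood below the others at 3.83 on the log2 CPM scale (14.2 CPM, the others between 48.4 and 62.7). This replicate was also the lowest double mutant for Ltf, Saa1, Saa2 and Saa3 and for the summed milk markers (7120 CPM). Saa2 in PIK3CA mutant replicate 1 stood above the others at 4.61 on the log2 CPM scale (24.4 CPM, the others between 18.2 and 18.8), a small gap on the CPM scale. The part of cell makeup in these values was not tested.

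For 2 of the 8 genes the double mutant change differed from the summed single-mutant changes by the interaction test. The interaction was -8.53 for Ltf (edgeR adjusted p = 0.0352) and -2.5 for Lbp (edgeR adjusted p = 0.0158). The Ltf call held in 6 of 16 fits that left out a replicate and was lost with the replicate number as a block (edgeR adjusted p = 0.102) and with limma (adjusted p = 0.0514), while Lbp held in 14 of 16. Both genes were higher in all mutant samples than in WT, and since only WT came from normal breast, the interaction and tissue source cannot be told apart.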

How the results depend on the processing

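Of the 8 genes, none changed direction while past the threshold under any alternative, and median-of-ratios and upper-quartile scaling left all calls of the 8 genes on the same side. Without the filter on low counts, 2 of the 8 genes passed in double against HER2 mutants and 2 in HER2 against PIK3CA mutants. With the replicate block, 1 passed in PIK3CA mutants against WT, 0 in double against HER2 mutants, 0 in HER2 against PIK3CA mutants and 1 for the interaction. In fits of only the groups compared these counts were 6 in PIK3CA mutants and 1 in HER2 mutants against WT, 0 in double against HER2 mutants and 0 in HER2 against PIK3CA mutants. With DESeq2 they were 5 in PIK3CA and 6 in double mutants against WT, 2 in double against HER2 mutants, 2 in HER2 against PIK3CA mutants and 4 for the interaction. With limma they were 0, 0 and 1 for the last 3 of these. Leaving out each replicate in turn gave 0 to 1 in PIK3CA, 3 to 4 in HER2 and 0 to 3 in double mutants against WT, 0 to 2 in double against HER2 mutants, 0 to 0 in double against PIK3CA mutants, 0 to 2 in HER2 against PIK3CA mutants and 0 to 3 for the interaction. Counts over all genes moved with several of these. In fits of only the groups compared they were 4136 in PIK3CA and 541 in HER2 mutants against WT, against 1096 and 2518. With the replicate block they were 794 in PIK3CA mutants against WT, 118 in double against HER2 mutants, 552 in HER2 against PIK3CA mutants and 35 for the interaction, and with DESeq2 1869, 1715, 2219 and 966. The cause was not tested. By the rule that every pair must exceed 0.1, the replicate numbers did not pair the samples: over 21 same-numbered pairs the mean correlation of deviations was 0.0122, and 3 of 16 samples correlated best with their own number. In double against HER2 mutants, where the block ended the Lbp call, the 4 pairs had a mean of 0.157 and a lowest value of 0.0711, with 3 of 4 over 0.1. Double mutant replicate 5 was alone in its block.

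Over all tested genes, counts of calls ranged from 396 to 4136 in PIK3CA (main count 1096), 541 to 3754 in HER2 (2518) and 1173 to 4143 in double mutants (2850) against WT. They ranged from 37 to 1715 in double against HER2 mutants (606), 17 to 658 in double against PIK3CA mutants (163), 427 to 2219 in HER2 against PIK3CA mutants (1069) and 35 to 998 for the interaction (257). Upper-quartile scaling gave 191 higher and 441 lower genes in double against HER2 mutants, against 249 and 357 with TMM. The alternatives gave no value in 4 cases of a gene and a comparison. With 3 WT samples, the spread of Saa1 and Saa2 in WT limits what can be detected in them.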
